A study of Homo sapiens with 18 samples.

Results

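The genes described here are the receptors that bind double-stranded RNA in human cells, the proteins that pass on or limit their signal, and a pair of the interferons they switch on. The members were named by symbol, with no threshold on a measured value: DDX58, IFIH1, DHX58, TLR3, MAVS, EIF2AK2, ADAR, IFNB1 and IFNL1. DDX58 is the older symbol of RIGI. Of these 9 named genes, 8 had a row among the 39496 genes of the count table, and IFNB1 was not analysed here. Of the 8, 7 passed the filter on low counts and were tested together with all 20144 genes that passed it, and IFNL1 did not pass.

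Cultured human bladder cancer cells of the lines UM-UC-3 and T24, both labelled wild type, received a control small interfering RNA (siNC) or either of the duplexes siACAT1-1 and siACAT1-2, which target ACAT1, by transfection. ACAT1 encodes a mitochondrial acetyl-CoA acetyltransferase. Each of the 6 groups had 3 libraries of poly(A) RNA from independent experiments, so that 18 libraries were compared. All groups, controls included, had received a synthetic RNA duplex with a transfection reagent, and a group of cells without a duplex was not analysed here. The effect of the duplex as such therefore cannot be told apart from the level of the cells, and each comparison gives the difference between duplexes.

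RIG-I (DDX58) and MDA5 (IFIH1) are helicases of the cytoplasm that bind viral or misplaced double-stranded RNA, RIG-I at the ends of short duplexes and MDA5 along long ones. Both signal through MAVS on the mitochondrial outer membrane to the kinase TBK1 and the transcription factor IRF3, which switch on interferon genes. DHX58 (LGP2) is a relative without signalling domains that modulates the other helicases, and TLR3 senses double-stranded RNA in endosomes and signals through TICAM1 rather than MAVS. EIF2AK2 (PKR) halts translation by phosphorylating eIF2 alpha when it binds double-stranded RNA, and ADAR converts adenosines of such duplexes to inosine, which keeps the cell's own duplexes from being sensed. Several of these sensors are themselves induced by interferon.

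Interferon acts on its target genes through short elements to which ISGF3 and the interferon regulatory factors bind, built of a pair of GAAA blocks. RefSeq promoters on GRCh38.p14, which run from 250 bases before a transcript's start to 50 after it, were searched on both strands for GAAANNGAAA, in which N is any base, and for the shorter form GAAANGAAA. Among the 35116 promoters of the table, 3.57% held the first and 3.12% the second, and 6.40% held either. The windows are shown since they mark which sensor genes carry such an element beside their start. Capitals mark the motif, or its reverse complement where the motif lay on the other strand. Positions are counted from the transcript's start, and a negative number lies before it.
DDX58: ggtgcggaggGAAACGAAActagcccgag
IFIH1: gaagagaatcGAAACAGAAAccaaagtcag
TLR3: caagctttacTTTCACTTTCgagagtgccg
EIF2AK2: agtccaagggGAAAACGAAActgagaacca
IFNL1: gttctaaggaTTTCAGTTTCtctttccttc
The DDX58 window is chr9:32526381-32526409 on the minus strand, and it holds the shorter form at -203 to -195. The IFIH1 window is chr2:162318686-162318715 on the minus strand, with GAAANNGAAA at -21 to -12, and 2 overlapping matches on the opposite strand lay at -159 to -150 and -153 to -144 of the same promoter. The EIF2AK2 window is chr2:37156967-37156996 on the minus strand, with the match across the start at -6 to 4. The TLR3 window is chr4:186069142-186069171 on the plus strand, with a reverse match at -4 to 6, and the IFNL1 window is chr19:39296183-39296212 on the plus strand, with a reverse match at -214 to -205 that overlaps another at -208 to -199. The promoter of MAVS and the 3 promoters of ADAR held neither form in these 300 bases, and DHX58 had no entry. A match describes letters and is not evidence of binding.

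Depth ranged from 25163490 to 34417230 counted reads per library, with a median of 28613163. ACAT1 itself was lower in each knockdown group than in siNC, in UM-UC-3 by 93.4% for the first and 95.3% for the second duplex, and in T24 by 92.0% and 95.1%. Levels are given in RPKM (reads per kilobase of exon, scaled to the depth of the library). Of 13 urothelial and epithelial markers, keratins 7, 8 and 18 were above 1 RPKM in every library of both lines. UPK3A, UPK1B, KRT5 and CDH1 were at or near 0, and GATA3 was at most 0.371 RPKM. Keratins 7 and 19 reached 81.1 to 371 and 1.56 to 31.8 RPKM in T24, and 1.94 to 7.22 and 0.0554 to 0.172 in UM-UC-3. PPARG and EPCAM reached 2.90 to 6.23 and 0.656 to 2.70 RPKM in T24 and at most 0.448 and 0.111 in UM-UC-3. Of 9 listed markers of blood and immune cells, 7 had a row and 6 of these stayed under 1 RPKM in all 18 libraries. Only CD68 did not. Libraries with the same replicate number deviated together within each cell line, and the T24 libraries numbered 2 and the UM-UC-3 libraries numbered 3 stood apart from the rest. Each result was therefore fitted with and without the replicate number as a block, and called results were also computed without these libraries. Nothing in the labels says what a number marks. In whole cultures, fewer cells that express a gene and less RNA per cell cannot be told apart.

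Across the members, ADAR had the highest mean RPKM in all 6 groups and IFNL1, TLR3 and DHX58 the lowest. The ranges of ADAR and DDX58 overlapped in all 3 groups of T24. In UM-UC-3 siNC cells, ADAR was at 11.2 ± 0.685 RPKM (mean ± SD, n = 3 here and below), followed by EIF2AK2 at 3.95 ± 0.551, MAVS at 3.13 ± 0.362 and DDX58 at 3.03 ± 0.301. The range of MAVS overlapped those of EIF2AK2 and DDX58, so that its place between them was not fixed by these libraries. All EIF2AK2 libraries lay above all DDX58 libraries, at 3.35 to 4.44 against 2.68 to 3.26 RPKM. IFIH1 lay apart from these 3 genes at 0.352 ± 0.0818 RPKM. In T24 siNC cells, ADAR was at 13.0 ± 0.651 RPKM, and DDX58 at 9.85 ± 3.35, EIF2AK2 at 5.96 ± 0.889 and MAVS at 5.03 ± 1.61 overlapped. IFIH1 followed at 1.29 ± 0.490 RPKM and DHX58 at 0.462 ± 0.270, and TLR3 was below every library of both at 0.0938 ± 0.0111 RPKM. Of the receptors RIG-I, MDA5, LGP2 and TLR3, DDX58 thus had the highest mean in both lines. RPKM is per length of all annotated exons, so that a comparison between genes depends on which isoforms are made, and gene counts cannot separate the isoforms of ADAR or MAVS.

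**Figure D1:**
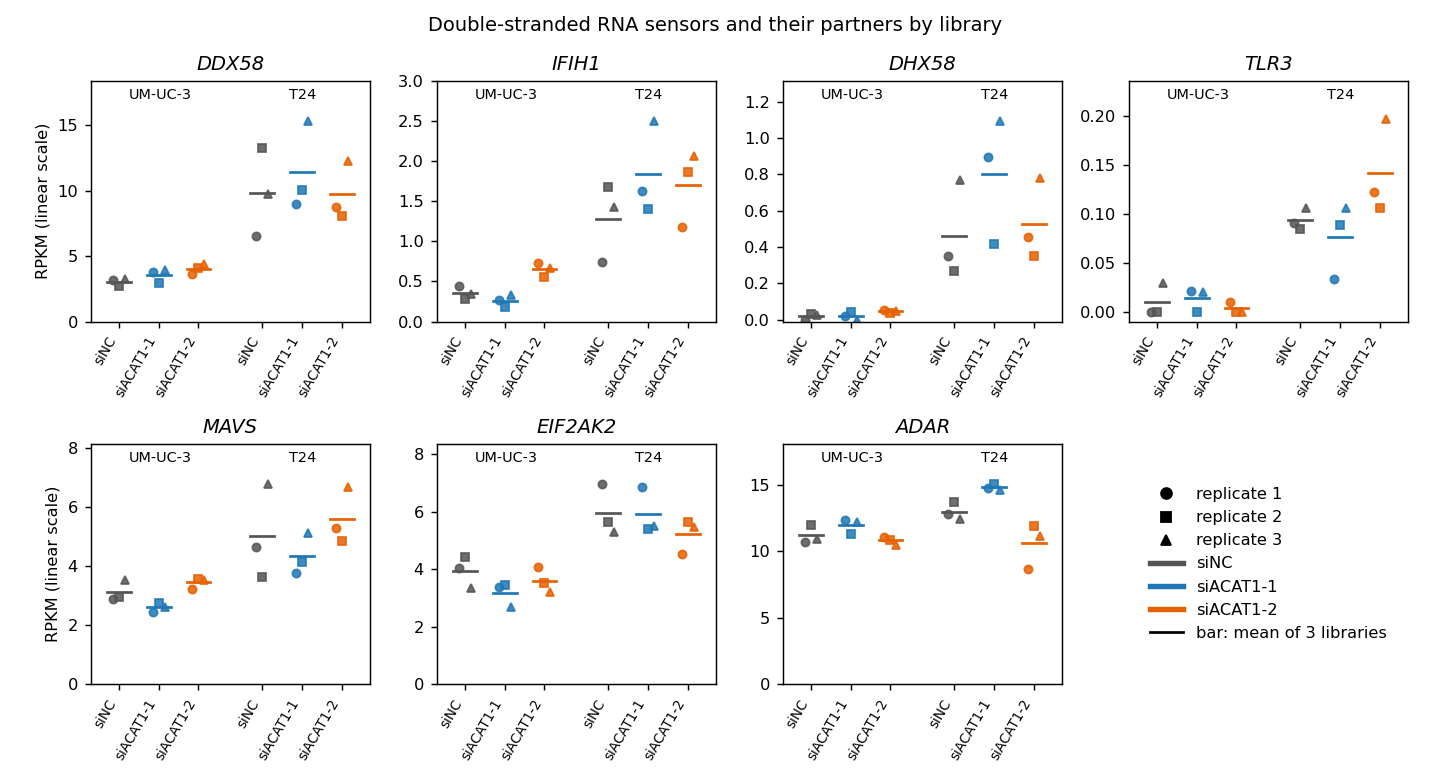
RPKM of the 7 tested members in each of the 18 libraries, with a panel for each gene and the 6 groups along the horizontal axis; points are libraries and bars the mean of 3. DDX58 and IFIH1 of the UM-UC-3 siNC libraries all lie below those of T24 siNC, and ADAR lies between 8.68 and 15.1 RPKM in every library.

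The level of the sensors before knockdown was compared between the control libraries of the lines. DHX58 and TLR3 passed the filter on low counts only through T24 and are given by their counts. Of the other 5 tested members, 4 passed the test as lower in UM-UC-3, where 44.3% of all tested genes were called in either direction. DDX58 was at 3.13, 2.68 and 3.26 RPKM in UM-UC-3 siNC and at 6.56, 13.3 and 9.73 in T24 siNC, without overlap. It was 3.12-fold lower in UM-UC-3 (log2 fold change -1.64, SE 0.24, edgeR adjusted p = 4.1e-05). IFIH1 was at 0.438, 0.275 and 0.343 RPKM against 0.738, 1.68 and 1.43, a 3.49-fold difference (log2 -1.80, SE 0.32, adjusted p = 2.4e-04). The relative LGP2, encoded by DHX58, was close to the limit of detection in UM-UC-3. Its siNC libraries held 0, 4 and 3 counts there, and 46, 29 and 83 in T24, so that the ratio of the summed counts per depth was 22.7 (95% interval 10.8 to 57.4, counting error only).

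The endosomal sensor TLR3 was rare in both lines. It had 0, 0 and 6 counts in the UM-UC-3 siNC libraries and 21, 16 and 20 in those of T24, a ratio of 9.56 (95% interval 4.13 to 27.1, counting error only). All 6 of the UM-UC-3 counts came from replicate 3. The fitted differences of the adaptor and the effectors were smaller than those of DDX58 and IFIH1, without a test of that difference. MAVS was at 2.88, 2.97 and 3.55 RPKM in UM-UC-3 and at 4.67, 3.64 and 6.80 in T24, 1.56-fold lower in the former (log2 -0.64, SE 0.20, adjusted p = 0.0172). The MAVS call was lost without UM-UC-3 siNC replicate 1 (0.0626), replicate 2 (0.0517) or T24 siNC replicate 3 (0.104), the values being adjusted p. EIF2AK2 was at 4.06, 4.44 and 3.35 RPKM against 6.97, 5.64 and 5.28, 1.47-fold lower (log2 -0.55, SE 0.19, adjusted p = 0.0229). That call was lost without UM-UC-3 siNC replicate 3 (adjusted p = 0.105) or T24 siNC replicate 1 (adjusted p = 0.134), and without all UM-UC-3 libraries numbered 3 (adjusted p = 0.0798). ADAR did not pass the test, at 10.7, 12.0 and 10.9 RPKM against 12.8, 13.7 and 12.4, with a log2 difference between -0.43 and 0.09 at 95% confidence (adjusted p = 0.281).

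**Figure D2:**
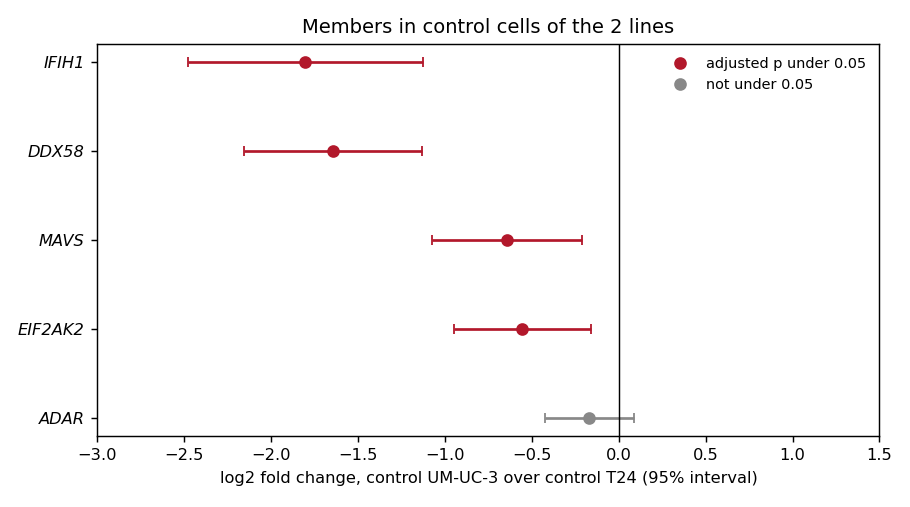
Log2 fold change of UM-UC-3 siNC over T24 siNC for 5 tested members; points are edgeR estimates from 3 libraries a group and lines the 95% confidence interval. All 5 estimates lie below 0, IFIH1 lowest at -1.80, and only the interval of ADAR reaches past 0.

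The question of the study's design was what changed when ACAT1 was lowered. No member passed the test in any of the 4 comparisons of an ACAT1 siRNA with siNC, or in their mean, with edgeR's quasi-likelihood test. The share of all 20144 genes called was itself small without the block, 0.00993% (siACAT1-1) and 0.0546% (siACAT1-2) in UM-UC-3, 0.124% and 0.268% in T24, and 0.223% in the mean. At an unadjusted p under 0.05 there was 1 member in UM-UC-3 with siACAT1-2 (IFIH1) and 1 in T24 with siACAT1-2 (ADAR). With the replicate number as a block, 3.06%, 1.36%, 13.9%, 8.48% and 12.4% of all genes were called in the same order, and again 0 of 7 members, of which 2 had an unadjusted p under 0.05 in each comparison and in the mean. DESeq2 called 0 of 7 as well. In UM-UC-3 a change of DHX58 or TLR3 was not measurable, so that 0 of 7 there rests on the other 5. The siNC libraries of a line serve both of its comparisons, so these are not independent.

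The absence of calls rested in part on the T24 libraries numbered 2, which stood apart. With the block and without these 3 libraries, IFIH1 and DDX58 passed in the mean of the 4 comparisons, at 0.50 (adjusted p = 0.0128) and 0.39 (adjusted p = 0.0027) on the log2 scale, where 15.6% of all genes were called. In T24 with siACAT1-1, IFIH1 (0.95, adjusted p = 0.00369), DDX58 (0.54, adjusted p = 0.0116) and MAVS (-0.37, adjusted p = 0.0482) passed in that setting, beside 18.3% of all genes, and so did IFIH1 in UM-UC-3 with siACAT1-2 (0.87, adjusted p = 0.0239; 2.34% of all genes). All libraries were fitted together and share the estimate of the spread. Leaving out T24 libraries can therefore move the adjusted p of a UM-UC-3 comparison although the UM-UC-3 counts stay the same. Leaving out T24 siNC replicate 2 alone had a like outcome with the block, with IFIH1 at 0.50 (adjusted p = 0.0214) and DDX58 at 0.39 (adjusted p = 0.00415) in the mean, and without T24 siACAT1-1 replicate 2 the mean of IFIH1 passed too (0.44, adjusted p = 0.019). In single comparisons, IFIH1 passed without T24 siNC replicate 2 in T24 with siACAT1-1 (adjusted p = 0.0136) and siACAT1-2 (0.0475) and in UM-UC-3 with siACAT1-2 (0.0417), and without T24 siACAT1-1 replicate 2 in T24 with siACAT1-1 (0.00457) and UM-UC-3 with siACAT1-2 (0.0277). DDX58 passed without T24 siNC replicate 2 in T24 with siACAT1-1 (adjusted p = 0.01). The number of all genes called also changed when a library was left out, with ranges given at the end of this report. The calls gained in this way therefore do not by themselves set the members apart from other genes. With the UM-UC-3 libraries numbered 3 left out, 0 of 7 members passed in any of these comparisons, where 0.0683% and 0.347% of all genes were called in UM-UC-3, 11.6% and 6.8% in T24, and 5.76% in the mean.

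IFIH1 gave the largest estimate among the members with fold changes in UM-UC-3. It was at 0.438, 0.275 and 0.343 RPKM with siNC, 0.266, 0.187 and 0.326 with siACAT1-1, and 0.727, 0.555 and 0.666 with siACAT1-2, from 26 to 94 counts per library. All 3 siACAT1-2 libraries were above all 6 others of the line. The estimate over siNC was 1.79-fold for siACAT1-2 (log2 0.84, SE 0.32, 95% interval 0.17 to 1.52, adjusted p = 1, and with the block adjusted p = 0.088), and -0.44 on the log2 scale for siACAT1-1 (interval -1.14 to 0.26). In T24, IFIH1 was at 0.738, 1.68 and 1.43 RPKM with siNC, 1.62, 1.41 and 2.501 with siACAT1-1, and 1.19, 1.87 and 2.06 with siACAT1-2. The T24 groups overlapped, with log2 estimates of 0.55 (SE 0.30, adjusted p = 0.502, and with the block 0.0752) and 0.44 (SE 0.30, interval -0.20 to 1.07). Over the 4 comparisons its mean was 0.35 (interval -0.06 to 0.76, adjusted p = 0.554), which includes 0.

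DDX58, the sensor of short duplexes, was at 3.77, 2.93 and 3.93 RPKM in the UM-UC-3 libraries of siACAT1-1 and 3.65, 4.12 and 4.37 in those of siACAT1-2. The siACAT1-2 libraries were all above the siNC libraries given above, and those of siACAT1-1 overlapped them. The log2 estimate was 0.38 for siACAT1-2 (SE 0.24, interval -0.12 to 0.88) and 0.22 for siACAT1-1 (SE 0.24). In T24, DDX58 spread more widely than it differed between groups, at 8.96, 10.05 and 15.3 RPKM with siACAT1-1 and 8.78, 8.04 and 12.3 with siACAT1-2, with log2 estimates of 0.24 and 0.01. Its mean over the 4 comparisons was 0.22 on the log2 scale, with a 95% interval of -0.09 to 0.52.

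DHX58 stayed near the limit in UM-UC-3, at 2, 5 and 0 counts in the siACAT1-1 libraries and 6, 4 and 5 in the siACAT1-2 libraries, and no fold is given there. In T24 it had 93, 48 and 106 counts with siACAT1-1 and 51, 38 and 95 with siACAT1-2, beside 46, 29 and 83 with siNC. In RPKM, which allows for depth, it was above siNC of the same number in 3 of 3 pairs for each siRNA. The pair of siACAT1-2 replicate 3 was nearly equal, at 0.778 against 0.770 RPKM. The siACAT1-2 estimate changed sign in some fits without 1 library, with the range given at the end of this report. The groups overlapped, and the log2 estimate for siACAT1-1 was 0.82 (SE 0.55, interval -0.35 to 1.98, and with the block 0.84, SE 0.33, adjusted p = 0.0975). In UM-UC-3, TLR3 had 4, 0 and 4 counts in the siACAT1-1 libraries and 2, 0 and 0 in the siACAT1-2 libraries. In T24 its counts were 6, 18 and 18, and 24, 20 and 42, with log2 estimates of -0.30 (SE 0.76) and 0.61 (SE 0.74), so that a change of this receptor was not measurable at this depth. Between 71.48% and 75.32% of the gene values from 1 to 11 counts were even numbers, as when both mates of a pair are counted, so that low counts may rest on fewer fragments. The intervals given above for the ratios of DHX58 and TLR3 between the lines take each count as independent, and would then be too narrow.

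Of the adaptor and the effectors, MAVS was at 2.46, 2.75 and 2.60 RPKM in the UM-UC-3 libraries of siACAT1-1, each below all siNC libraries, and at 3.24, 3.58 and 3.54 with siACAT1-2, which overlapped them. Its log2 estimates were -0.26 (SE 0.20, interval -0.70 to 0.17) and 0.10, and in T24 -0.20 and 0.18. EIF2AK2 was lower than siNC of the same number in 3 of 3 pairs with siACAT1-1 in UM-UC-3, at 3.40, 3.45 and 2.68 RPKM (log2 -0.32, SE 0.19, interval -0.71 to 0.08, and with the block adjusted p = 0.174). In T24 its estimates were -0.00 and -0.19. Its exons overlap the antisense gene AC007899.3 over 401 bases and GPATCH11 over 35 bases, and the strand setting of the counting is not given in the sources used here.

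ADAR, the RNA editor, did not pass the test against siNC for either siRNA, although its T24 groups lay apart. It was at 12.8, 13.7 and 12.4 RPKM with siNC, 14.8, 15.1 and 14.6 with siACAT1-1, and 8.68, 11.9 and 11.1 with siACAT1-2. The 3 groups did not overlap, those of siACAT1-1 being highest and those of siACAT1-2 lowest. The log2 estimates were 0.20 (SE 0.12, interval -0.06 to 0.46) and -0.28 (SE 0.12, interval -0.54 to -0.03, adjusted p = 0.516, and with the block 0.101). In UM-UC-3 it stayed between 10.5 and 12.3 RPKM in all 9 libraries, and its mean over the 4 comparisons was -0.02 (interval -0.18 to 0.14).

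**Figure D3:**
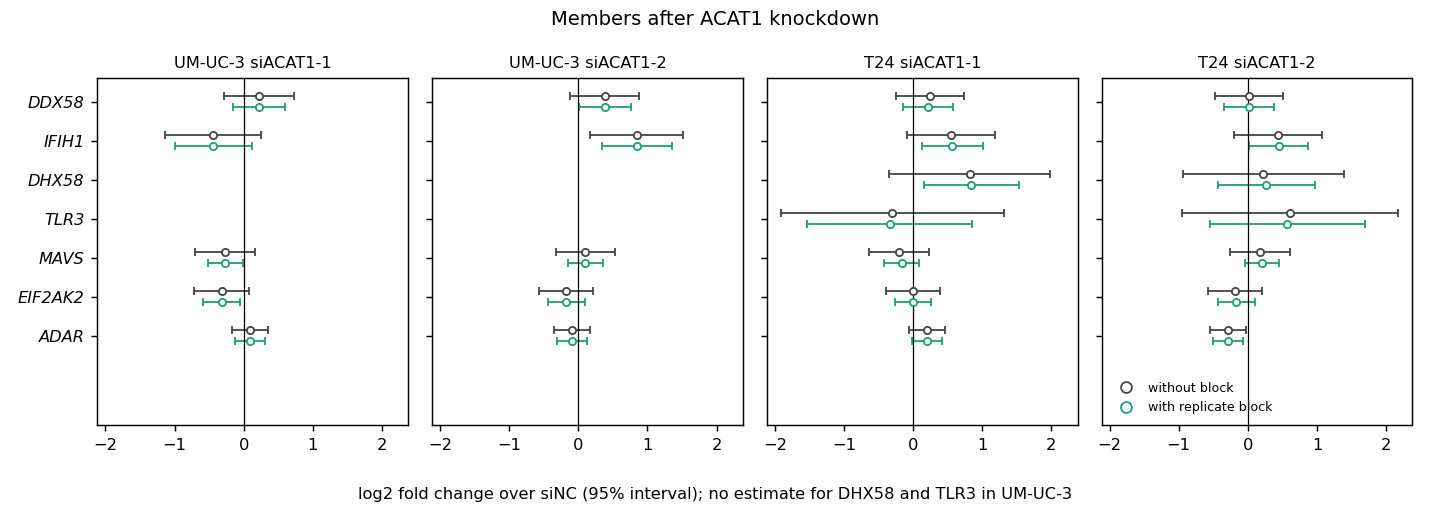
Log2 fold change over siNC of each siRNA in each cell line, with a panel for each comparison; grey points are estimates without and green points with the replicate number as a block, and lines are 95% confidence intervals. No point is filled, since none had an adjusted p under 0.05, and DHX58 and TLR3 are left out in UM-UC-3, where they were near the limit of detection.

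IFNL1, a type III interferon of epithelia, had 2 counts in UM-UC-3 siACAT1-1 replicate 1 and 2 in UM-UC-3 siACAT1-2 replicate 3, and 0 in the other 16 libraries. A count of 0 allows up to 0.1017 to 0.1391 RPKM in these libraries, so that expression above this range was not detected. This limit takes each count as independent, and would be too low if both mates of a pair were counted. Of 20 other interferon genes listed, 8 had a row and only IFNE, an epithelial type I interferon, passed the filter. IFNE had between 2 and 71 counts in all 18 libraries. In T24 it was at 0.473, 0.529 and 0.290 RPKM with siNC and at 1.78, 0.584 and 1.19 with siACAT1-1, without overlap, but it did not pass the test (log2 1.47, SE 0.53, adjusted p = 0.28, and with the block 0.056). With siACAT1-2 it was at 0.280, 0.385 and 0.555 RPKM and overlapped siNC. IFNE passed for siACAT1-1 with the block without T24 siACAT1-1 replicate 2 or without the T24 libraries numbered 2, and it was lower with siACAT1-2 than with siACAT1-1 in T24 with the block (log2 -1.45, SE 0.48, adjusted p = 0.0459, and without the block 0.206). The difference between the lines in the effect of knockdown was tested for all 7 members, and 0 passed with edgeR (0 at p under 0.05 before adjustment), against 0% of all genes. With the block it was again 0 of 7, against 0.104%, and 0 with DESeq2.

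Both siRNAs lowered ACAT1, and the difference between them was tested directly. Over both cell lines, siACAT1-2 minus siACAT1-1, 0 of 7 members passed edgeR's test in the fit without replicate numbers (3 had p under 0.05 before adjustment), where 2.56% of all genes were called. With the block 3 of 7 were called, IFIH1, MAVS and ADAR, where 20.6% of all genes were called. IFIH1 was 1.50-fold higher with siACAT1-2 (log2 0.58, SE 0.16, 95% interval 0.24 to 0.92, adjusted p = 0.0147, and without the block 0.18). The call of IFIH1 was lost without UM-UC-3 siACAT1-1 replicate 1 (log2 0.52, adjusted p = 0.0646). MAVS was 1.29-fold higher (log2 0.37, SE 0.09, interval 0.19 to 0.55, adjusted p = 0.0043, and without the block 0.19), and ADAR was 1.26-fold lower (log2 -0.33, SE 0.07, adjusted p = 0.0032). Without the block ADAR was at the threshold itself (log2 -0.33, SE 0.09, adjusted p = 0.05), and it passed with DESeq2 (adjusted p = 3.65e-04), with DESeq2's size factors (0.0450), and without T24 siACAT1-1 replicate 2 (0.0482) or T24 siACAT1-2 replicate 2 (0.047). The block calls of MAVS and ADAR were kept without any 1 of the 18 libraries, and all 3 calls were kept without the T24 libraries numbered 2 or the UM-UC-3 libraries numbered 3 (adjusted p up to 0.026). DDX58 and EIF2AK2 did not pass, with log2 differences between -0.28 and 0.24 and between -0.20 and 0.18 with the block at 95% confidence.

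The same difference was then taken in each line, in 3 comparisons added after these values had been seen. In UM-UC-3, IFIH1 was 2.44-fold higher with siACAT1-2 than with siACAT1-1 in the fit with the block (log2 1.29, SE 0.25, interval 0.76 to 1.81, adjusted p = 0.0044, and without the block 0.22, DESeq2 0.0338). Its values, given above, were higher in 3 of 3 pairs of the same number. It was the only member called there, and 8.15% of all genes were called with the block and 0.0496% without. The call was lost without UM-UC-3 siACAT1-1 replicate 1 (log2 1.18, adjusted p = 0.0583), and it held without the UM-UC-3 libraries numbered 3 (log2 1.50, adjusted p = 0.0239). MAVS was higher without overlap, at 3.24 to 3.58 against 2.46 to 2.75 RPKM, but did not pass (with the block adjusted p = 0.065), except without the T24 libraries numbered 2 (0.03) and without T24 siNC replicate 2 or T24 siACAT1-1 replicate 2 alone (0.0374 and 0.0332).

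In T24, where 14.7% of all genes were called with the block and 0.968% without, ADAR and MAVS passed with the block. ADAR was lower with siACAT1-2 in 3 of 3 pairs (log2 -0.49, SE 0.11, adjusted p = 0.0040, and without the block 0.0707; DESeq2 3.5e-04), and the call was lost without T24 siACAT1-2 replicate 1, the lowest library (log2 -0.38, adjusted p = 0.0578). MAVS was at 5.29, 4.87 and 6.68 RPKM with siACAT1-2 and 3.77, 4.16 and 5.12 with siACAT1-1, which overlapped, although it was higher in 3 of 3 pairs (log2 0.37, SE 0.12, adjusted p = 0.0433, and without the block 0.467). The MAVS call was kept without 1 library in only 5 of 18 cases, with adjusted p from 0.0112 to 0.302, and it was lost without the UM-UC-3 libraries numbered 3 (0.078). IFIH1 did not pass the test in T24 (log2 -0.13, interval -0.55 to 0.30, with the block). The difference between the lines in the IFIH1 contrast was 1.41 on the log2 scale (SE 0.33, interval 0.74 to 2.09, adjusted p = 0.0387 with the block, where 1.1% of all genes were called; 1 without it, where 0% were). That call was kept in 8 of 18 cases without 1 library (adjusted p 0.00246 to 0.148), and it was lost without the UM-UC-3 libraries numbered 3 (0.0871).

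**Figure D4:**
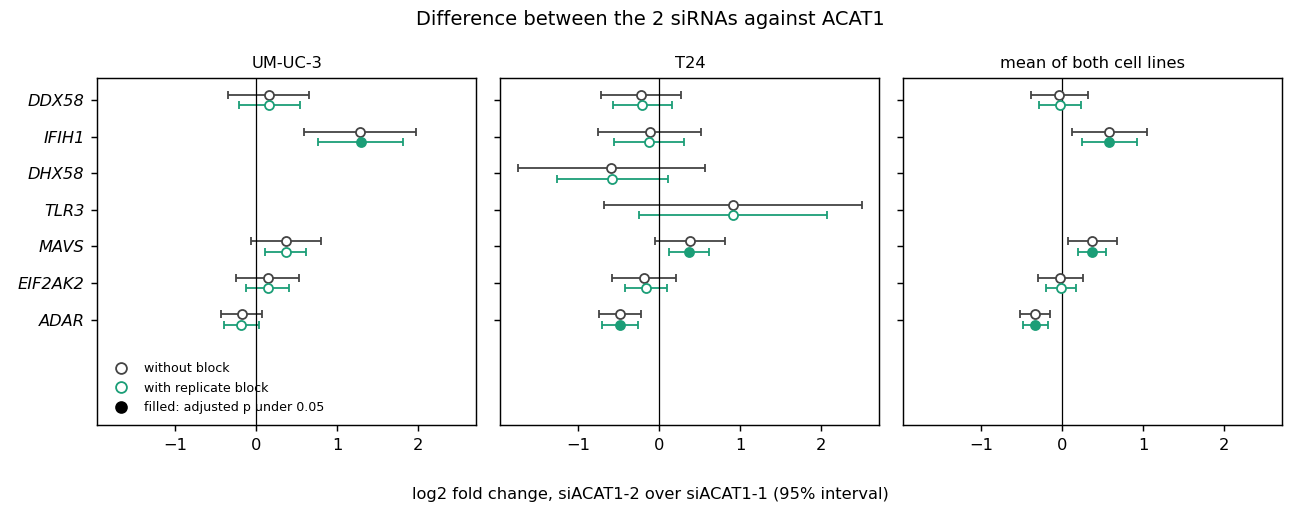
Log2 fold change of siACAT1-2 over siACAT1-1 for the members, in UM-UC-3, in T24 and as the mean of both; grey points are fits without and green points with the block, lines are 95% confidence intervals, and filled points had an adjusted p under 0.05. IFIH1 is high in UM-UC-3 and near 0 in T24, and ADAR lies below 0 in each panel.

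How the members varied within a line differed from gene to gene. In T24, the siRNA group accounted for 85.7% of the variation of ADAR in log2 CPM among the 9 libraries and the replicate number for 1.03%. DHX58 and MAVS went the other way in T24, with 69.2% and 62.7% for the number and 25.6% and 23.7% for the siRNA, and the library numbered 2 was the lowest of each group for DHX58 and of 2 of the 3 groups for MAVS. In UM-UC-3 the siRNA group held 82.5% of the variation of IFIH1, 73.9% of that of MAVS and 62.9% of that of DDX58, and the number held 57.1% of that of EIF2AK2. The genes whose levels were most like a member's over the 18 libraries, with each line's mean subtracted, were UBXN4 (Pearson r = 0.928) and ASH1L for ADAR, HARS2 for IFIH1 (0.859), NUMBL (0.885) and PARP9 (0.847) for DHX58, CCDC183 for DDX58 (0.776), AC006449.2 for MAVS (0.919), COX11 for EIF2AK2 (0.848) and CITED4 for TLR3 (0.822). These are the highest of 20144 genes over libraries that share depth and replicate number, and are given as a description. Among the members themselves, the closest were DDX58 and IFIH1 (r = 0.630), and MAVS and ADAR ran opposite (r = -0.596).

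The other genes of the pathway were taken from lists drawn up with earlier results of these data known. The counts of these genes are set against the 12.4% of all genes called with the block in the mean of the 4 comparisons with siNC. In each list 0 passed without the block, except for IFIT3 among the genes induced by interferon or IRF3. Of the 25 adaptors, kinases and factors that relay the signal, 4 were called and all 4 rose with the block (2 at an unadjusted p under 0.05 without it, 1 with DESeq2; 1 to 6 without 1 library, the lowest without T24 siNC replicate 1; 8 without the T24 libraries numbered 2, where 15.6% of all genes were called, and 2 without the UM-UC-3 libraries numbered 3, where 5.76% were). TBK1, the kinase downstream of MAVS and TICAM1, was at 10.4, 14.1 and 8.84 RPKM in T24 with siNC, 18.9, 20.9 and 17.8 with siACAT1-1, and 11.6, 17.9 and 13.7 with siACAT1-2. Its siACAT1-1 libraries lay above those of siNC and overlapped those of siACAT1-2, and its mean log2 change over the 4 comparisons was 0.46 (SE 0.08, adjusted p = 8.7e-04 with the block, and without it 0.11). Of 18 tested brakes on the sensors, 3 rose with the block (0 at an unadjusted p under 0.05 without it, 0 with DESeq2), namely TNFAIP3, CYLD and TRIM38. Without the UM-UC-3 libraries numbered 3, or without T24 siNC replicate 3 alone, 0 of 18 were called, in settings where 5.76% of all genes and 1191 genes were called. TNFAIP3 was lost without any of UM-UC-3 siNC replicates 2 and 3 and T24 siNC replicates 1 and 3 (adjusted p up to 0.0798), CYLD without the UM-UC-3 or T24 siNC replicate 3 (up to 0.0669), and TRIM38 without UM-UC-3 siNC replicate 3 or T24 siNC replicates 1 and 3 (up to 0.104).

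Of 23 other proteins that bind double-stranded RNA, 4 rose and 2 fell with the block (4 at an unadjusted p under 0.05 without it, 2 with DESeq2; 3 called without T24 siNC replicate 3), and the median of the list was -0.05 on the log2 scale. OASL, a binder of RIG-I that lacks the activity of the OAS enzymes, and DDX60, a helicase related to the sensors, were among those that rose, by 1.09 (SE 0.22, adjusted p = 0.0025, and without the block 0.144) and 0.51 (SE 0.10, adjusted p = 0.0026, and without the block 0.209) on the log2 scale. OASL was low in UM-UC-3 with siNC (0.0604, 0.0354 and 0.0552 RPKM), so that folds there rest on very low control values. The block gave log2 estimates of 1.59 for siACAT1-1 (adjusted p = 0.0475) and 2.44 for siACAT1-2 (adjusted p = 0.00245) in that line. With the block and without 1 library, the siACAT1-1 call was kept in 5 of 18 cases and the siACAT1-2 call in 18. Without the block, each passed in 0 of 18 such cases. In T24, OASL was at 0.888 ± 0.199 RPKM with siNC, 0.901 ± 0.443 with siACAT1-1 and 1.23 ± 0.508 with siACAT1-2, and the groups overlapped. Of 8 tested other nucleic acid sensors, RNASEH2A and RNASEH2B, subunits of a nuclease of RNA bound to DNA, fell, and the DNA sensor IFI16 rose, 3 in all with the block (3 at an unadjusted p under 0.05 without it, 1 with DESeq2). Of 16 genes of interferon receptors and their signalling, 3 rose with the block (2 at an unadjusted p under 0.05 without it, 0 with DESeq2, and 1 with the block without T24 siACAT1-1 replicate 1), with IRF9, the DNA-binding part of ISGF3, at 0.59 (SE 0.11, adjusted p = 0.0018, and without the block 0.346). Of 16 genes of the translation arm below EIF2AK2, 1 fell with the block, EIF2B2 (-0.30, SE 0.08, adjusted p = 0.012), which was lost without UM-UC-3 siNC replicate 2 or T24 siNC replicate 1 (adjusted p up to 0.0866). None had p under 0.05 before adjustment in the fit without numbers, and 0 passed with DESeq2.

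Genes induced by interferon or IRF3 had the most calls of the lists. Since the lists were drawn up with earlier results of these data known, their shares beside all genes are a description and not a test. With the block 12 of 29 tested genes rose in the mean of the 4 comparisons and 0 fell, and without it 1 rose, IFIT3 (10 at an unadjusted p under 0.05, 4 with DESeq2). The median of the list was 0.36 with the block on the log2 scale (0.35 with genes near 0 at their bound), beside -0.00099 for all tested genes. The count with the block ran from 5, without T24 siNC replicate 3 (1191 of all genes called, beside 2500), to 13, and it was 13 of 30 without the T24 libraries numbered 2 (15.6% of all genes) and 9 of 29 without the UM-UC-3 libraries numbered 3 (5.76%). IFIT3, which binds foreign RNA together with IFIT1, was at 3.11, 3.13 and 4.78 RPKM in UM-UC-3 with siNC, 4.43, 4.35 and 4.76 with siACAT1-1, and 9.93, 9.83 and 10.1 with siACAT1-2. All siACAT1-2 libraries were above the rest, and its log2 change there was 1.40 (SE 0.20, adjusted p = 0.0094). Its mean over the 4 comparisons was 0.76 (SE 0.12, adjusted p = 0.018, and with the block 0.75, SE 0.10, adjusted p = 6.7e-05). Without the block the mean of IFIT3 was lost without UM-UC-3 siNC replicate 1 or 2 or T24 siNC replicate 1 or 3 (adjusted p up to 0.0992), and its UM-UC-3 call without UM-UC-3 siNC replicate 1 or 2 or any siACAT1-2 library of that line (up to 0.142), whereas with the block both were kept in 18 of 18 cases.

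Not every induced gene followed the siRNA group. IFI6 was at 1.81, 1.85 and 1.65 RPKM in T24 with siNC, 10.3, 1.80 and 17.0 with siACAT1-1, and 17.8, 2.05 and 13.1 with siACAT1-2, so that the libraries numbered 2 were at the control level in both knockdown groups. Its mean log2 change was 1.21 with the block (SE 0.31, adjusted p = 0.013), and this was lost without UM-UC-3 siNC replicate 1, T24 siNC replicate 1 or T24 siNC replicate 3 (adjusted p up to 0.0913). MX1 was at 0.324, 0.445 and 0.505 RPKM in T24 with siNC, 0.935, 0.531 and 1.06 with siACAT1-1, and 0.779, 0.412 and 1.08 with siACAT1-2, again lowest in the library numbered 2 of each knockdown group. RSAD2 had 0 counts in all 3 UM-UC-3 siNC libraries and stayed at or under 0.203 RPKM in every library, and no fold is given.

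**Figure D5:**
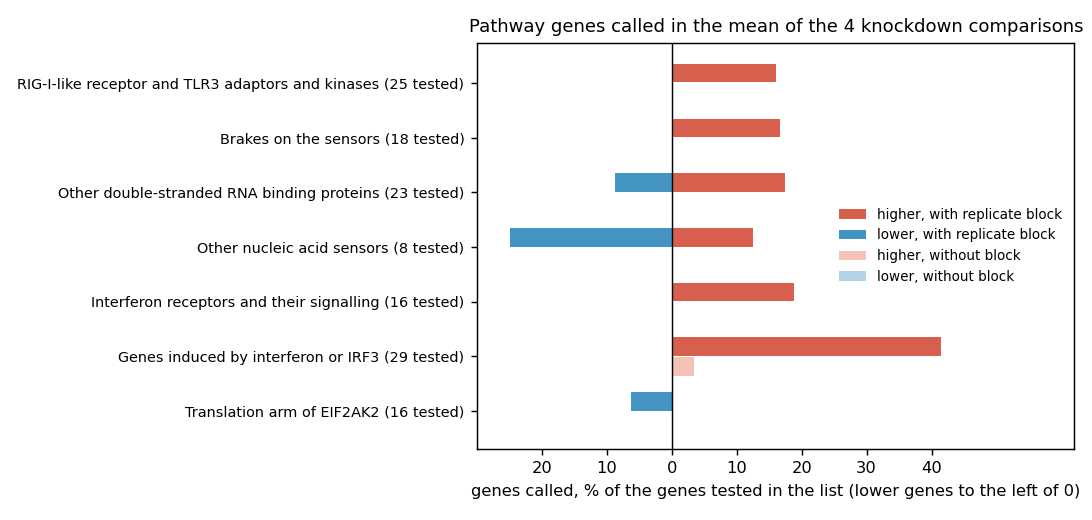
Percent of the tested genes of each of 7 pathway lists called higher or lower in the mean of the 4 comparisons of an ACAT1 siRNA with siNC, with the replicate block in dark and without it in pale bars. Genes induced by interferon or IRF3 reach 41.4% called higher with the block, beside 12.4% of all tested genes called in either direction. The lists were drawn up with earlier results of these data known.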

How the data were processed

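Poly(A) RNA of 18 cultures was sequenced by the authors with a stranded kit. Per the labels and the study's methods, reads were trimmed with Trimmomatic 0.36, aligned to GRCh38 with STAR 2.5.3 and counted per gene with featureCounts of Subread 1.5.1, and both files, raw counts per gene and RPKM, are as deposited by the authors. Whether molecular identifiers were collapsed and which strand setting was used are not given in the sources used here. Groups were taken from the sample titles.

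Counts were fitted with edgeR 4.0.16 in R 4.3.3 (quasi-likelihood test, TMM, filterByExpr), with 1 coefficient for each of the 6 groups, and p-values were adjusted by Benjamini and Hochberg over the 20144 genes tested and called under 0.05. A total of 11 comparisons were made, 3 of them added after values had been seen. The fit was tested on simulated counts. RPKM values are given per library as mean ± SD. In both lines, 9 of 9 pairs of libraries with the same replicate number and different siRNAs had correlated deviations from their group means over 0.1 (r 0.115 to 0.576 in UM-UC-3 and 0.356 to 0.686 in T24, beside -0.545 to 0.269 and -0.567 to 0.210 for other pairs). The numbers were therefore taken to pair the samples. The source of this pairing is the data, since the labels give only the number and independent experiments. Replicates of a group differed by more than sampling noise (chi-square per degree of freedom 11.9 to 175), and p-values without the block measure the spread between these cultures. With the block they measure the spread left after the shift of each number within a line is removed.

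Alternatives were DESeq2 1.42.0, its size factors in edgeR, no filter on low counts, each line alone, the replicate block and leaving out libraries. Likeness used log2 CPM with a prior count of 2. No fold is given where the libraries of both groups were near the floor of 3 counts. Intervals at 95% on counts cover counting error only, with each count taken as independent. The members and gene lists were chosen with earlier results of these data known. All members are described; of each list, the genes that could be named were those called against siNC with or without the block, at most 5 by size of the mean change. A gene that this rule would name is not reported here. Of 14 listed urothelial markers 13 had a row, of 20 other interferons 8, and both markers of endothelium were under 0.1 RPKM.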

Additional observations from a re-analysis of the deposited data

Results flagged for a closer look

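The difference between the siRNAs, siACAT1-2 over siACAT1-1, differed for IFIH1 between the cell lines in the fit with the replicate block. The interaction, UM-UC-3 minus T24, was 1.414 on the log2 scale. This comparison was added after the values of IFIH1 had been seen, so that its adjusted p is not independent of them. It rested on RPKM of 0.187 to 0.326 against 0.555 to 0.727 in UM-UC-3 and on overlapping groups in T24.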

How the results depend on the processing

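The number of genes called depended on the replicate block. With it, 617 and 273 genes were called for siACAT1-1 and siACAT1-2 against siNC in UM-UC-3, 2799 and 1708 in T24, and 2500 in the mean of the 4, beside 2, 11, 25, 54 and 45 without it. It also gave 4141 genes for the difference between the siRNAs over both lines, 1642 in UM-UC-3 and 2958 in T24, 221 for that difference between lines, and 21 for the difference of the knockdown effect between lines. The block changed the calls of IFIH1, MAVS and ADAR between the siRNAs, given in the report, and no other call of a member. Without a filter on low counts, the numbers in the same order were 167, 58, 463, 180, 383, 884, 216, 521, 96 and 29, and with DESeq2 they were 18, 37, 388, 252, 316, 1263, 158, 694, 8 and 1. With T24 fitted alone, 1 gene was called for siACAT1-1, 2 for siACAT1-2 and 1 between the siRNAs. Scaling by DESeq2 size factors moved none of these by over 1.5 times, and the cause of the other moves was not tested.

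Leaving out 1 library at a time, over the fits with and without the block, the counts ran from 2 to 908, 2 to 391, 2 to 3852, 13 to 1964, 6 to 3162, 165 to 4654, 1 to 1984, 19 to 3811, 0 to 775 and 0 to 93. Small differences of members changed sign in these fits. In log2 units, siACAT1-1 against siNC in T24 ran from -0.031 to 0.58 for DDX58, -0.67 to 0.033 for TLR3, -0.42 to 0.033 for MAVS and -0.17 to 0.17 for EIF2AK2. For siACAT1-2 the ranges were -0.22 to 0.35 for DDX58, -0.17 to 0.74 for DHX58, -0.059 to 0.40 for MAVS and -0.32 to 0.023 for EIF2AK2. The mean of the 4 ran from -0.15 to 0.075 for MAVS and -0.053 to 0.013 for ADAR. Between the siRNAs, DDX58 ran from -0.13 to 0.10 and EIF2AK2 from -0.078 to 0.083 over both lines, and in T24 DDX58 from -0.43 to 0.045, IFIH1 from -0.44 to 0.17 and EIF2AK2 from -0.29 to 0.022. The difference between lines ran from -0.15 to 0.14 for MAVS in the siRNA contrast, and in the knockdown effect from -0.15 to 0.43 for DDX58, -0.28 to 0.18 for MAVS and -0.024 to 0.14 for ADAR. With T24 alone, EIF2AK2 for siACAT1-1 was 0.00071 and DDX58 for siACAT1-2 -0.0046. Without a filter, MAVS was 0.0055 in the siRNA contrast between lines. Without the T24 libraries numbered 2, DDX58 was 0.0028 between the siRNAs and -0.14 for the knockdown effect between lines, and MAVS was 0.086 there. Without the UM-UC-3 libraries numbered 3, DDX58 was -0.011 for siACAT1-2 in T24, and MAVS was 0.011 in the mean, 0.0067 for the knockdown effect between lines and 0.036 for the siRNA contrast between lines. Changes of DHX58 and TLR3 with knockdown in UM-UC-3, and of IFNL1, were not measurable at this depth.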
